A study of Mus musculus with 13 samples.

Results

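The neutrophil alarmin and granule genes studied here are 10 genes, namely the alarmin subunits S100a8 and S100a9, the granule protein genes Ltf, Ngp, Camp and Lcn2, the receptor genes Cxcr2 and Csf3r, and Retnlg and Asprv1. They were taken by symbol from a table of 34013 genes in bulk RNA sequencing of mouse perivascular adipose tissue, the fat around blood vessels, and all 10 were found and passed the filter on low counts that left 17270 genes. The 13 libraries come from recipient mice of C57BL/6 background that had been given splenocytes. The donors were diabetic Nlrp3 knockout mice (NTS-R, 3 libraries), animals with type 2 diabetes (TS-R, 4 libraries), Nlrp3 knockout mice without diabetes (NS-R, 3 libraries) or wild-type mice (WTS-R, 3 libraries). The series asks how immune cells of diabetic donors act on this fat, and whether donor Nlrp3, the sensor of an inflammasome, matters. All groups share the transfer of splenocytes, and fat of mice without transfer is not analysed here. The genotype label (Nlrp3 KO for NTS-R and NS-R, WT for TS-R and WTS-R) does not say whether it means the donor or the recipient, and the age, the time after transfer, the way diabetes was produced and any pooling were not given in the sources used here. Nothing in the labels says that libraries came from separate animals, so p-values measure the spread between these libraries.

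Neutrophils are made in the marrow, circulate for a short time and enter tissue when chemokines call them. S100A8 and S100A9 fill their cytosol and, once released as the heterodimer calprotectin, act on other cells as alarmins. Their granules are built in steps: myeloperoxidase and elastase are packed first, lactoferrin, the cathelicidin Camp, Ngp and Lcn2 follow in secondary granules, and the mature cell carries the chemokine receptor Cxcr2 and the G-CSF receptor Csf3r. The transcription factors C/EBP epsilon and PU.1 are known regulators of these programmes.

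Since most of these genes were high in the same libraries, their promoters are shown with matches to 2 short motifs, a C/EBP-type motif with the letters TTGCNNAA and a PU.1-type motif with the letters AGGAAGT, both searched on both strands of 300 bases, from 250 before to 50 after the start. The C/EBP-type letters were found in the windows of 5 of the 10 genes (S100a9, Retnlg, Ltf, Ngp and Lcn2) and in 10.8% of 32851 promoters. The PU.1-type letters were found in 1 of the 10 (S100a8) and in 9.35% of promoters. The sequences are RefSeq's for GRCm38.p6, are written 5′ to 3′ on the gene's strand, and have the matched letters in capitals. S100a8 (chr3:90668821-90669120, plus strand) holds the PU.1-type letters read on the opposite strand, and its neighbour S100a9 (chr3:90695672-90695971, minus strand) holds the C/EBP-type letters near the far end of the window. Ngp (chr9:110419558-110419857, plus strand) has 2 C/EBP-type matches and Ltf (chr9:111019042-111019341, plus strand) has 1, and all 3 read TTGCCCAA on 1 strand or the other. A match is a description of letters, not a shown binding site.
S100a8: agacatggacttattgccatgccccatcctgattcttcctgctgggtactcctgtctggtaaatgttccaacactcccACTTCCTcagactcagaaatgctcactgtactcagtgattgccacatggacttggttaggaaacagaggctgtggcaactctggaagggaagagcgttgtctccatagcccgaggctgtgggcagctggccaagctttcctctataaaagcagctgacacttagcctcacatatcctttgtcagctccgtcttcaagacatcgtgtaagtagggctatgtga
S100a9: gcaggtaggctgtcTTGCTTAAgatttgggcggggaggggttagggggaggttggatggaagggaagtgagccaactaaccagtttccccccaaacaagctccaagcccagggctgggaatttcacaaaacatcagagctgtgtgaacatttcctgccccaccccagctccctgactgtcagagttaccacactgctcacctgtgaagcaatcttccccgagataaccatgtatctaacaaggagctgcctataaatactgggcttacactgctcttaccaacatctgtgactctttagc
Ngp: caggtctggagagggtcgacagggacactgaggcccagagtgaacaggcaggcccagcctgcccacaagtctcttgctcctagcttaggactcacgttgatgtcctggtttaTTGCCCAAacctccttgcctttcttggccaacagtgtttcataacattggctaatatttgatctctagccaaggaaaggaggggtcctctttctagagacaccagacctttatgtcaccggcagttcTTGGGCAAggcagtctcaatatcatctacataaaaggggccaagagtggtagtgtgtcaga
Ltf: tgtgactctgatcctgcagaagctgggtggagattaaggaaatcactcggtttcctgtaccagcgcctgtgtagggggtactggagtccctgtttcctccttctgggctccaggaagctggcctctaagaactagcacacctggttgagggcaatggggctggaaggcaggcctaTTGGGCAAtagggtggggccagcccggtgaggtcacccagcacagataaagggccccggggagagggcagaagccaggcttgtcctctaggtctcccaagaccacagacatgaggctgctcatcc

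Library totals ran from 14216706 to 37011122 counts, so that 3 counts, the limit that a count of 0 allows, correspond to 0.0811 to 0.211 CPM (counts scaled to the library total). These floors cover counting error alone. The fat genes Adipoq and Ucp1 were present in every library and lowest in TS-R replicate 3, with 438 and 366 CPM. Nlrp3 had 1.22, 0.483 and 0.352 CPM in NTS-R, 0.537, 1.35, 3.55 and 1.16 CPM in TS-R, 1.03, 0.456 and 1.36 CPM in NS-R, and 0.601, 0.226 and 0.693 CPM in WTS-R, so its level in the fat did not separate the genotype labels. Some libraries stood apart in tissue content. The lymph node venule gene Glycam1 reached 74.3 CPM in TS-R replicate 2 and 1166 CPM in TS-R replicate 3, the fast muscle myosin Myh4 reached 3227 CPM in TS-R replicate 1, and the airway gene Scgb1a1 reached 2324 and 4629 CPM in NS-R replicates 1 and 2.

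The alarmin pair was high in all 4 TS-R libraries and low in the other 9. S100a9 was measured at 4.35, 4.0 and 2.81 CPM in NTS-R, 42.9, 128, 158 and 25.1 CPM in TS-R, 3.0, 5.13 and 5.20 CPM in NS-R, and 1.62, 5.20 and 1.26 CPM in WTS-R. The lowest TS-R library, replicate 4, therefore lay above the highest library of any other group, and NTS-R, NS-R and WTS-R overlapped one another. The group means were 3.72 ± 0.805 CPM in NTS-R (SD, n = 3), 88.4 ± 64.4 CPM in TS-R (SD, n = 4), 4.44 ± 1.25 CPM in NS-R and 2.69 ± 2.18 CPM in WTS-R (SD, n = 3 each). S100a8 followed with 1.68, 2.48 and 1.27 CPM in NTS-R, 17.2, 54.3, 55.3 and 7.71 CPM in TS-R, 0.757, 2.39 and 1.95 CPM in NS-R, and 0.721, 2.82 and 0.441 CPM in WTS-R. Its groups were placed in the same way, with TS-R replicates 2 and 3 highest and no TS-R library within the range of another group. The subunits kept close to each other: the ratio of S100a9 to S100a8 counts was 2.49, 2.35, 2.86 and 3.26 in TS-R, within the 1.61 to 3.96 seen over all 13 libraries. In bulk tissue, fewer cells of a type and less RNA per cell cannot be told apart.

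The fitted log2 difference of S100a9 was 4.70 (SE 0.72) in TS-R versus WTS-R, and that of S100a8 was 4.32 (SE 0.85). The edgeR quasi-likelihood test gave both a Benjamini-Hochberg adjusted p (FDR) of 0.0624, which was the lowest FDR of any gene in that comparison and misses the threshold of 0.05. DESeq2 gave adjusted p-values of 3.32e-11 for S100a9 and 8.85e-07 for S100a8. In NTS-R versus TS-R the fitted log2 differences were -4.25 (SE 0.71) for S100a9 and -3.89 (SE 0.83) for S100a8, with an edgeR FDR of 0.105 for both and DESeq2 adjusted p-values of 1.15e-08 and 3.21e-05. The TS-R libraries enter both comparisons, which are therefore not independent. The sign of both genes did not depend on 1 library, since leaving out each library in turn gave 4.28 to 5.65 for S100a9 and 3.88 to 5.56 for S100a8 in TS-R versus WTS-R.

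**Figure D1:**
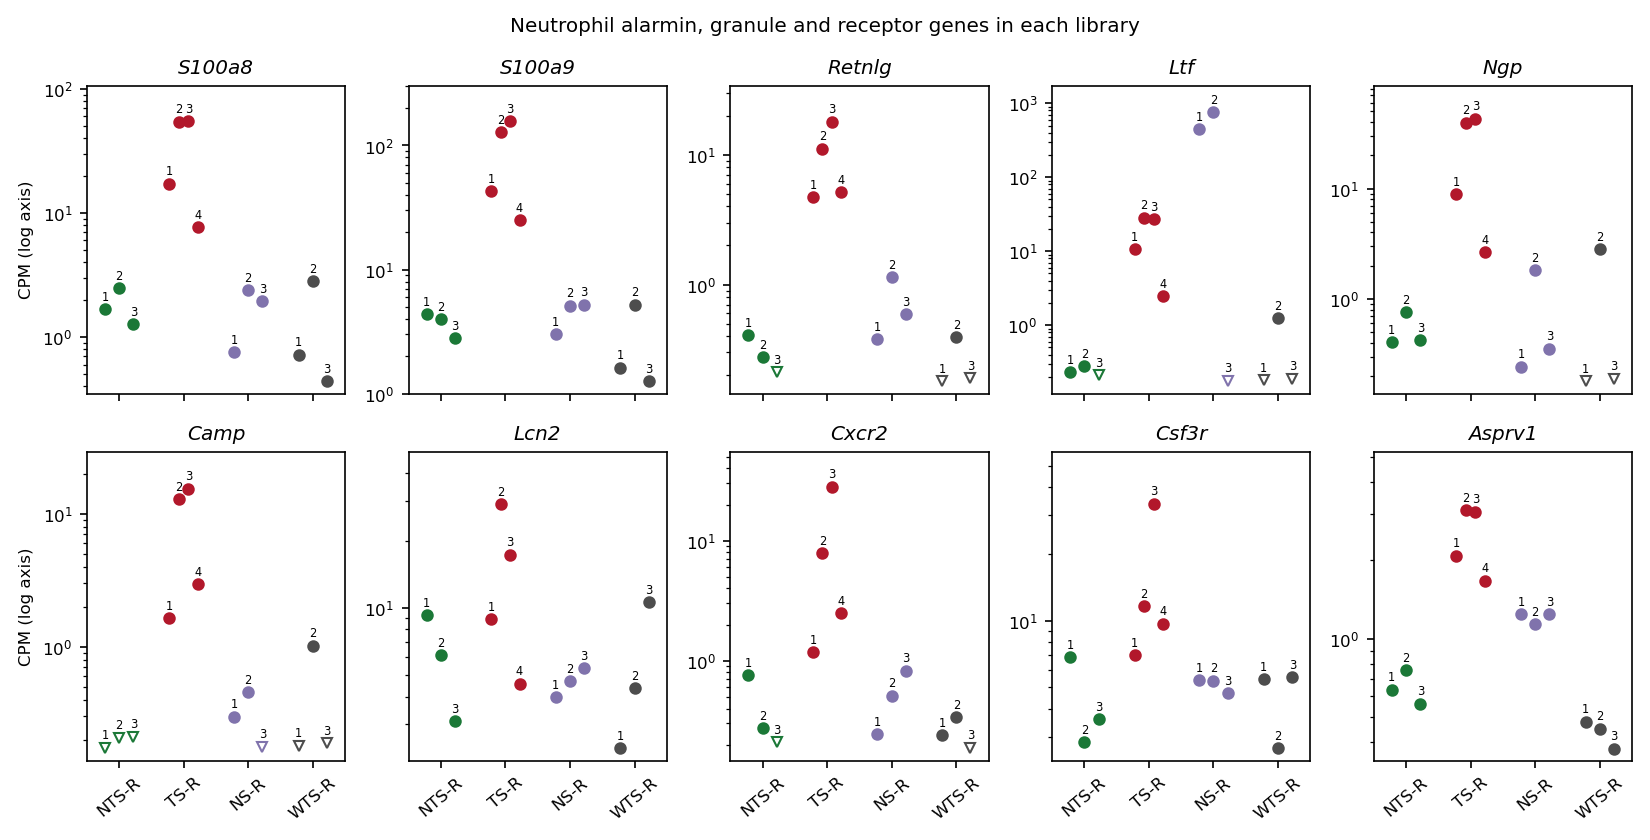
Level of the 10 genes in each library in CPM on a log axis, by group; numbers are replicates and open triangles mark counts of 3 or fewer, drawn at that library's 3-count floor. TS-R lies above all other libraries for 7 genes, Ltf is highest in NS-R replicates 1 and 2, and the groups overlap for Lcn2.

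Among the granule genes, Ngp, the cathelicidin gene Camp and the lactoferrin gene Ltf were at or near the floor in many libraries outside TS-R. Ngp encodes a secondary granule protein of the cystatin and cathelicidin family and had 0.406, 0.759 and 0.422 CPM in NTS-R, 8.89, 39.4, 43.0 and 2.63 CPM in TS-R, 0.243, 1.82 and 0.354 CPM in NS-R, and 0.0601, 2.82 and 0.126 CPM in WTS-R. TS-R replicate 4 was just below WTS-R replicate 2, so those groups overlapped, whereas all NTS-R libraries lay below all TS-R libraries. Camp, whose peptide disrupts bacterial membranes, had 0.174, 0.0690 and 0 CPM in NTS-R, 1.64, 12.9, 15.4 and 2.95 CPM in TS-R, 0.297, 0.456 and 0.0590 CPM in NS-R, and 0, 1.02 and 0 CPM in WTS-R. The NTS-R values of Camp stand for 3, 1 and 0 counts, all at or under the floor, while TS-R was above every other library. The fitted log2 differences in TS-R versus WTS-R were 4.18 (SE 1.26, edgeR FDR 0.0854) for Ngp and 4.21 (SE 1.24, edgeR FDR 0.0803) for Camp. In NTS-R versus TS-R they were -5.14 (SE 1.36) for Ngp and -6.21 (SE 1.47) for Camp, each with an edgeR FDR of 0.105.

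WTS-R replicate 2 set the size of these values. It held 50 of the 53 Ngp counts and all 18 Camp counts of WTS-R. Without it the fitted difference in TS-R versus WTS-R was 7.62 for Ngp and 10.2 for Camp, the Camp value then depending on the fit's prior count because the remaining WTS-R libraries are at 0.

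Ltf, the iron-binding lactoferrin, was the member with a second place of high expression. It had 0.232, 0.276 and 0.141 CPM in NTS-R, 10.6, 28.5, 26.8 and 2.44 CPM in TS-R, 442, 751 and 0.118 CPM in NS-R, and 0.0601, 1.24 and 0.126 CPM in WTS-R. The highest levels were in NS-R replicates 1 and 2, with NS-R replicate 3 under its floor, while all 4 TS-R libraries lay above NTS-R and WTS-R. The fitted log2 difference of Ltf in TS-R versus WTS-R was 4.79 (SE 1.74, edgeR FDR 0.133). WTS-R replicate 2 held 22 of the 25 Ltf counts of WTS-R, and without that library the value was 7.17. In NTS-R versus TS-R the Ltf difference was -5.95 (SE 1.96, edgeR FDR 0.131). NS-R replicates 1 and 2 are the libraries with airway transcripts, where the club cell gene Scgb1a1 had 2324 and 4629 CPM against 0 CPM in NS-R replicate 3. Summed over 6 airway markers the level ran from 0 to 0.927 CPM in NTS-R, 0.201 to 1.09 CPM in TS-R, 0.354 to 11562 CPM in NS-R and 0.282 to 0.481 CPM in WTS-R. At 0 in every library of a group were Scgb3a2 and Sftpc in NTS-R and Scgb3a2 in WTS-R. Lactoferrin is also made by glandular epithelium, and the part of these transcripts in the Ltf level was not tested. S100a9 was at 3.0 and 5.13 CPM in the same NS-R replicates 1 and 2, within the range of NS-R replicate 3 and the WTS-R libraries.

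Lcn2, the siderophore-binding neutrophil gelatinase-associated lipocalin, had the smallest fitted differences of the 10 genes in TS-R versus WTS-R and in NTS-R versus TS-R. It had 9.27, 6.14 and 3.09 CPM in NTS-R, 8.86, 29.2, 17.3 and 4.56 CPM in TS-R, 3.97, 4.67 and 5.37 CPM in NS-R, and 2.34, 4.35 and 10.6 CPM in WTS-R. TS-R replicates 2 and 3 were the highest of all, but TS-R replicates 1 and 4 lay inside the ranges of NTS-R and WTS-R. Its fitted log2 difference was 1.11 (95% interval -0.21 to 2.43, edgeR FDR 0.301) in TS-R versus WTS-R and -1.0 (95% interval -2.32 to 0.32, edgeR FDR 0.389) in NTS-R versus TS-R. Adipocytes and epithelia also express Lcn2, and their part in its level was not tested. Like S100a8, S100a9, Csf3r and Asprv1, and unlike Camp or Retnlg, Lcn2 was above the floor in all 13 libraries.

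Both receptor genes were highest in TS-R replicate 3. Cxcr2, the receptor for the CXC chemokines that call neutrophils out of marrow and into tissue, had 0.754, 0.276 and 0 CPM in NTS-R, 1.17, 7.85, 28.2 and 2.51 CPM in TS-R, 0.243, 0.513 and 0.827 CPM in NS-R, and 0.240, 0.339 and 0 CPM in WTS-R. Every TS-R library was above every other library, and TS-R replicate 3 stood well above TS-R replicate 2. Csf3r, the receptor for the growth factor G-CSF, had 6.84, 2.83 and 3.59 CPM in NTS-R, 6.98, 11.6, 33.7 and 9.70 CPM in TS-R, 5.38, 5.36 and 4.72 CPM in NS-R, and 5.47, 2.65 and 5.55 CPM in WTS-R. TS-R was again above all others, by a narrow margin in TS-R replicate 1 over NTS-R replicate 1. The fitted log2 differences in TS-R versus WTS-R were 5.28 (SE 1.32, edgeR FDR 0.0624) for Cxcr2 and 1.48 (SE 0.49, edgeR FDR 0.107) for Csf3r. In NTS-R versus TS-R they were -4.49 (SE 1.25, edgeR FDR 0.105) for Cxcr2 and -1.51 (SE 0.49, edgeR FDR 0.130) for Csf3r. Both depended on TS-R replicate 3: without it the values were 3.96 for Cxcr2 and 0.81 for Csf3r in TS-R versus WTS-R, and -3.16 and -0.83 in NTS-R versus TS-R. Without WTS-R replicate 2, Cxcr2 gave 5.97 in TS-R versus WTS-R.

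Retnlg and Asprv1 also set TS-R apart from the other groups. Retnlg encodes resistin-like gamma, a secreted protein of mouse neutrophils and marrow, and had 0.406, 0.276 and 0.211 CPM in NTS-R, 4.73, 11.2, 17.9 and 5.14 CPM in TS-R, 0.378, 1.14 and 0.590 CPM in NS-R, and 0.0601, 0.395 and 0 CPM in WTS-R. The lowest TS-R library was above the highest NS-R library, and no NTS-R or WTS-R library held more than 7 counts. Asprv1, a retroviral-like aspartic protease known from epidermis that is also expressed by neutrophils, had 0.638, 0.759 and 0.563 CPM in NTS-R, 2.08, 3.11, 3.07 and 1.67 CPM in TS-R, 1.24, 1.14 and 1.24 CPM in NS-R, and 0.481, 0.452 and 0.378 CPM in WTS-R. Its libraries formed 4 levels without overlap, with TS-R highest, then NS-R, then NTS-R, and WTS-R lowest, on totals of 30 counts in NTS-R, 224 in TS-R, 87 in NS-R and 22 in WTS-R. In TS-R versus WTS-R the fitted log2 difference was 5.59 (SE 0.88) for Retnlg and 2.20 (SE 0.34) for Asprv1, each with an edgeR FDR of 0.0624. WTS-R replicate 2 held 7 of the 8 Retnlg counts of WTS-R, and without it the Retnlg value was 7.79. In NTS-R versus TS-R it was -4.69 (SE 0.82) for Retnlg and -1.61 (SE 0.32) for Asprv1, each with an edgeR FDR of 0.105. Keratinocyte markers (5), given here because of the epidermal source of Asprv1, summed to 3.04 to 4.12 CPM in NTS-R, 2.51 to 5.07 CPM in TS-R, 2.36 to 31.0 CPM in NS-R and 3.05 to 5.86 CPM in WTS-R. Krt5 was at 0 in every library of NTS-R, TS-R and WTS-R, and Dsg3 in every library of TS-R and WTS-R.

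Over the list, TS-R lay above WTS-R without overlap for 8 of the 10 genes, the exceptions being Ngp and Lcn2, which held for 19.2% of all genes tested. NTS-R lay below TS-R without overlap for 9 of 10, the exception being Lcn2, against 16.9% of all genes. All 4 TS-R libraries were above all 9 others for 7 of 10 genes (S100a8, S100a9, Retnlg, Camp, Cxcr2, Csf3r and Asprv1), and for 4.92% of all genes. The median fitted log2 difference of the 10 genes was 4.26 in TS-R versus WTS-R, where the median over all genes was 0.03, and -4.37 in NTS-R versus TS-R, where the median over all genes was -0.03.

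No gene of the 17270 passed an edgeR FDR of 0.05 in TS-R versus WTS-R, neither a member nor any other (0% called). At an unadjusted p under 0.05 edgeR had 9 members higher (all but Lcn2) and 15.2% of all genes higher. DESeq2 called 9 members higher (all but Lcn2) and 8.11% of genes higher at an adjusted p under 0.05, and limma with quality weights called 9 (all but Ltf) and 13.5% of genes. Without the filter on low counts edgeR called 7 members higher (2.42% of genes). In NTS-R versus TS-R edgeR likewise called 0 members and 0% of genes. There, 9 members (all but Lcn2) were lower at an unadjusted p under 0.05, beside 14.1% of genes. DESeq2 called the same 9 lower, beside 6.61% of genes, and limma with quality weights called 8 (not Ltf and not Lcn2; 7.28% of genes). Without the filter edgeR called 6 lower (1.14% of genes). The edgeR calls depended on which TS-R library was in the fit. Without TS-R replicate 1, the muscle-rich library, edgeR called 8 members higher in TS-R versus WTS-R (9.05% of genes) and 8 lower in NTS-R versus TS-R (5.75% of genes). Without TS-R replicate 4 the counts were 6 (5.76% of genes) and 7 (4.21% of genes), and without TS-R replicate 2 or TS-R replicate 3 they were 0.

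**Figure D2:**
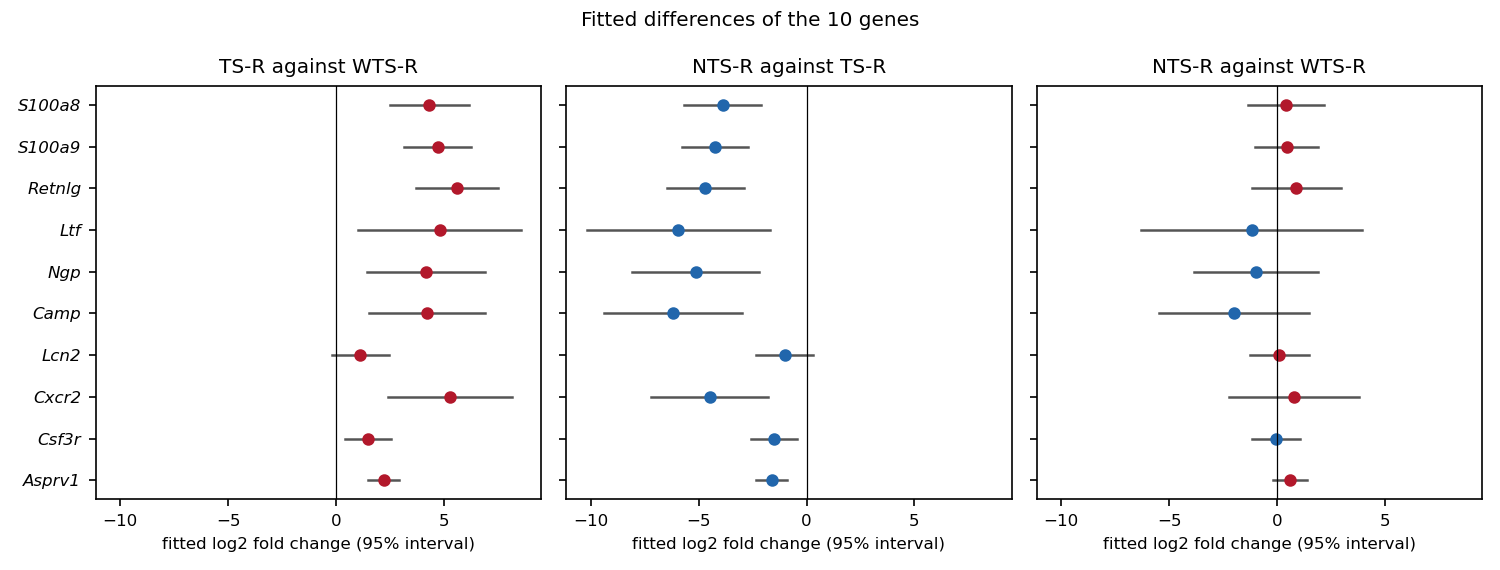
Fitted log2 fold change of the 10 genes with 95% intervals from edgeR (dots, red above 0 and blue below) for TS-R versus WTS-R, NTS-R versus TS-R and NTS-R versus WTS-R. The intervals of 9 genes lie above 0 in the first panel and below 0 in the second, Lcn2 crosses 0 in both, and all 10 cross 0 in the third.

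NTS-R versus WTS-R, the comparison of recipients of diabetic Nlrp3 knockout and of wild-type splenocytes, showed no member past either threshold. The edgeR test had 0 members at an FDR of 0.05 and 0 at an unadjusted p under 0.05, where 1.75% of all genes had a positive and 0.892% a negative difference, and DESeq2 called 0 members, with 0.0629% of genes higher and 0.0114% lower. The fitted log2 difference was 0.44 (95% interval -1.03 to 1.92) for S100a9 and 0.42 (95% interval -1.35 to 2.20) for S100a8. These intervals lie below the TS-R versus WTS-R estimates of the same genes, but they do not show that the groups are alike. For Ltf the interval was -6.28 to 3.96 and for Camp -5.45 to 1.46, so that sizeable differences either way were within the error. Asprv1 was above WTS-R in every NTS-R library, as were 6.84% of genes, with a fitted log2 difference of 0.59 (95% interval -0.20 to 1.37).

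Without donor diabetes, few members stood apart between donor genotypes. In NS-R versus WTS-R edgeR called 0 members at an FDR of 0.05 (0% of genes). At an unadjusted p under 0.05 Ltf, Asprv1 and Retnlg were higher, 3 of 10, beside 4.92% of all genes. The fitted log2 difference was 9.53 (SE 2.05, edgeR FDR 0.204) for Ltf, 1.42 (SE 0.35, edgeR FDR 0.261) for Asprv1 and 2.04 (SE 0.88, edgeR FDR 0.872) for Retnlg, which gave 4.24 without WTS-R replicate 2. DESeq2 called Ltf alone (1.43% of genes higher), as did edgeR without the filter on low counts (0.403% of genes). The Ltf value rests on the airway-containing libraries: without NS-R replicates 1 and 2 it was -1.87. Asprv1 was above WTS-R in every NS-R library, as were 7.78% of genes. S100a9 gave 0.66 (95% interval -0.79 to 2.11) and S100a8 0.27 (95% interval -1.49 to 2.03).

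In NTS-R versus NS-R, donor diabetes within the knockout, edgeR again called 0 members (0% of genes), with Ltf and Asprv1 lower at an unadjusted p under 0.05, beside 5.11% of genes. Ltf gave -10.69 (SE 2.22, edgeR FDR 0.188) and 0.73 without NS-R replicates 1 and 2, and it was the member that DESeq2 (1.64% of genes) and edgeR without the filter (0.368% of genes) called lower. Asprv1 gave -0.83 (SE 0.34, edgeR FDR 0.680), and all NTS-R libraries were below all NS-R libraries, as for 7.76% of genes. S100a9 gave -0.22 (95% interval -1.65 to 1.22).

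The difference between the donor diabetes effects with and without Nlrp3 was tested as an interaction, (NTS-R minus NS-R) minus (TS-R minus WTS-R). It was negative for all 10 genes, with a median of -4.79 where all genes had -0.06. For S100a9 it was -4.91 (SE 0.95, edgeR FDR 0.115), for Retnlg -6.73 (SE 1.18, edgeR FDR 0.115) and for Asprv1 -3.03 (SE 0.48, edgeR FDR 0.115). Ltf had -15.48 with the airway-containing NS-R libraries and -4.06 without them. The edgeR test called 0 members at an FDR of 0.05 (0% of genes), 9 were lower at an unadjusted p under 0.05 (13.6% of genes), and DESeq2 called 6 lower (5.77% of genes). Limma with quality weights called 4 (7.24% of genes), and edgeR without the filter called 4 (0.268% of genes).

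Within TS-R the genes did not scale together. TS-R replicate 3 had 1.02 times the S100a8, 1.24 times the S100a9, 1.09 times the Ngp, 1.19 times the Camp and 0.986 times the Asprv1 CPM of TS-R replicate 2. The ratio was 3.59 for Cxcr2 and 2.90 for Csf3r, and 0.593 for Lcn2. The ratio for Csf3r was below those of the alarmin and granule genes against TS-R replicate 4, and among them against TS-R replicate 1. TS-R replicate 3 over TS-R replicate 4 was 11.3 for Cxcr2 and 3.48 for Csf3r, with 7.17 for S100a8, 6.29 for S100a9, 5.22 for Camp and 16.3 for Ngp. TS-R replicate 3 over TS-R replicate 1 was 24.0 for Cxcr2 and 4.83 for Csf3r. That ratio was 3.22 for S100a8, 3.68 for S100a9, 2.52 for Ltf, 1.95 for Lcn2, 4.84 for Ngp and 9.37 for Camp. The range of the 4 TS-R libraries, highest over lowest, was smallest for Asprv1 (1.86 times) and largest for Cxcr2 (24.0 times), with 6.29 times for S100a9 and 16.3 times for Ngp.

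Markers of lymphoid cells were high in TS-R replicates 2, 3 and 4 too, to a different degree in each. The lymph node list (6 markers, none at 0 in a whole group) summed to 9.0 to 30.7 CPM in NTS-R, 22.7 to 2120 CPM in TS-R, 18.8 to 23.7 CPM in NS-R and 13.3 to 47.7 CPM in WTS-R. B cell markers (4) summed to 3.59 to 27.7 CPM in NTS-R, 15.5 to 1775 CPM in TS-R, 9.0 to 13.8 CPM in NS-R and 6.68 to 8.75 CPM in WTS-R. T cell markers (4) summed to 4.29 to 11.5 CPM in NTS-R, 12.7 to 303 CPM in TS-R, 3.57 to 8.09 CPM in NS-R and 3.06 to 5.23 CPM in WTS-R. Plasma cell markers (4) summed to 37.8 to 165 CPM in NTS-R, 135, 522, 2234 and 600 CPM in the TS-R libraries, 7.19 to 182 CPM in NS-R and 2.43 to 3.84 CPM in WTS-R. No B cell, T cell or plasma cell marker was at 0 in a whole group. All 6 lymph node, 4 B cell, 4 T cell and 4 plasma cell markers were higher in TS-R versus WTS-R and lower in NTS-R versus TS-R at an unadjusted p under 0.05, beside 15.2% and 14.1% of all genes, and none at an edgeR FDR of 0.05. Over the 13 libraries Pearson's r of S100a9 on the log2(CPM + 0.5) scale was 0.92 with the T cell gene Cd3d, 0.88 with the B cell gene Cd79a, 0.85 with Glycam1 and 0.77 with the plasma cell gene Jchain, in libraries that share the high TS-R group. The r of S100a9 was also 0.86 with the myeloperoxidase gene Mpo and 0.81 with the macrophage gene Csf1r. It was 0.23 with Myh4, 0.17 with the beta-globin gene Hbb-bs, 0.16 with the macrophage gene Adgre1, -0.22 with Scgb1a1 and -0.69 with Adipoq. The part of lymphoid cells in the neutrophil result was not tested. TS-R replicate 1, with S100a9 at 42.9 CPM, had Glycam1 at 0.0336 CPM, under its floor, and sums of 22.7 CPM for lymph node, 15.5 CPM for B cell, 12.7 CPM for T cell and 135 CPM for plasma cell markers. Its T cell sum was above that of every library outside TS-R, and its lymph node, B cell and plasma cell sums were within their range. Without TS-R replicates 2 and 3, the libraries highest in Glycam1, the fitted log2 difference in TS-R versus WTS-R was 3.33 for S100a9 (edgeR FDR 0.287), 2.87 for S100a8, 2.91 for Cxcr2, 0.63 for Csf3r and -0.03 for Lcn2. Monocyte and macrophage markers (6) summed to 93.7 to 230 CPM in NTS-R, 277 to 491 CPM in TS-R, 114 to 171 CPM in NS-R and 101 to 288 CPM in WTS-R.

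The summed markers of blood overlapped between TS-R and WTS-R. Erythroid markers (6) summed to 27.0 to 93.9 CPM in NTS-R, 43.1 to 410.2 CPM in TS-R, 92.7 to 332 CPM in NS-R and 80.7 to 152 CPM in WTS-R. The beta-globin gene Hbb-bs was highest in TS-R replicate 1 (189 CPM) and NS-R replicate 2 (170.2 CPM), whose S100a9 levels were 42.9 and 5.13 CPM. In TS-R replicate 4 Hbb-bs was at 16.4 CPM, among the lowest, with S100a9 at 25.1 CPM. Platelet markers (4) summed to 13.8 to 17.4 CPM in NTS-R, 21.6 to 31.0 CPM in TS-R, 16.1 to 39.4 CPM in NS-R and 15.5 to 28.9 CPM in WTS-R, so that TS-R lay above NTS-R without overlap. The 4 tested erythroid markers were all higher in TS-R versus WTS-R (median 0.3) and all lower in NTS-R versus TS-R (median -1.09). At an unadjusted p under 0.05 edgeR had 0 of them in either comparison, beside 15.2% and 14.1% of all genes. The part of blood in the neutrophil result was not tested. Genes of early granules, which neutrophil precursors express, were highest in TS-R replicates 2 and 3. Mpo, the myeloperoxidase gene, had 0, 0.0690 and 0 CPM in NTS-R, 0.168, 7.44, 14.2 and 0.578 CPM in TS-R, 0.162, 0.285 and 0 CPM in NS-R, and 0, 0.169 and 0.0630 CPM in WTS-R. TS-R replicates 2 and 3 held most of it, TS-R replicate 1 was as low as NS-R, and Mpo did not pass the filter on low counts. Ctsg, the cathepsin G gene of the same granules, had 0, 2.64, 6.24 and 0.128 CPM in TS-R and at most 0.207 CPM in the other groups. The elastase gene Elane was found in every library, with 2.20, 0.759 and 0.633 CPM in NTS-R, 1.48, 4.87, 7.26 and 1.54 CPM in TS-R, 1.57, 1.65 and 1.06 CPM in NS-R, and 2.04, 0.847 and 1.70 CPM in WTS-R. Prtn3, the proteinase 3 gene, had 3.71, 3.11 and 2.46 CPM in NTS-R, 3.32, 8.05, 10.4 and 3.08 CPM in TS-R, 4.08, 4.56 and 3.01 CPM in NS-R, and 3.72, 1.64 and 3.84 CPM in WTS-R. For both, TS-R replicates 1 and 4 lay within the range of the other groups, and the fitted log2 difference in TS-R versus WTS-R was 1.02 (95% interval -0.26 to 2.30) for Elane and 0.74 (95% interval -0.20 to 1.67) for Prtn3. Marrow precursor markers (6, these 4 genes with Kit and Cd34) summed to 109 to 132 CPM in NTS-R, 122 to 205 CPM in TS-R, 138 to 155 CPM in NS-R and 108 to 154 CPM in WTS-R. Cd34 made up most of these sums, with 172, 97.3, 63.9 and 95.9 CPM in TS-R. The sums therefore do not follow the 4 early granule genes: TS-R replicate 3, highest in these, summed to 125 CPM and TS-R replicate 1 to 205 CPM.

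**Figure D3:**
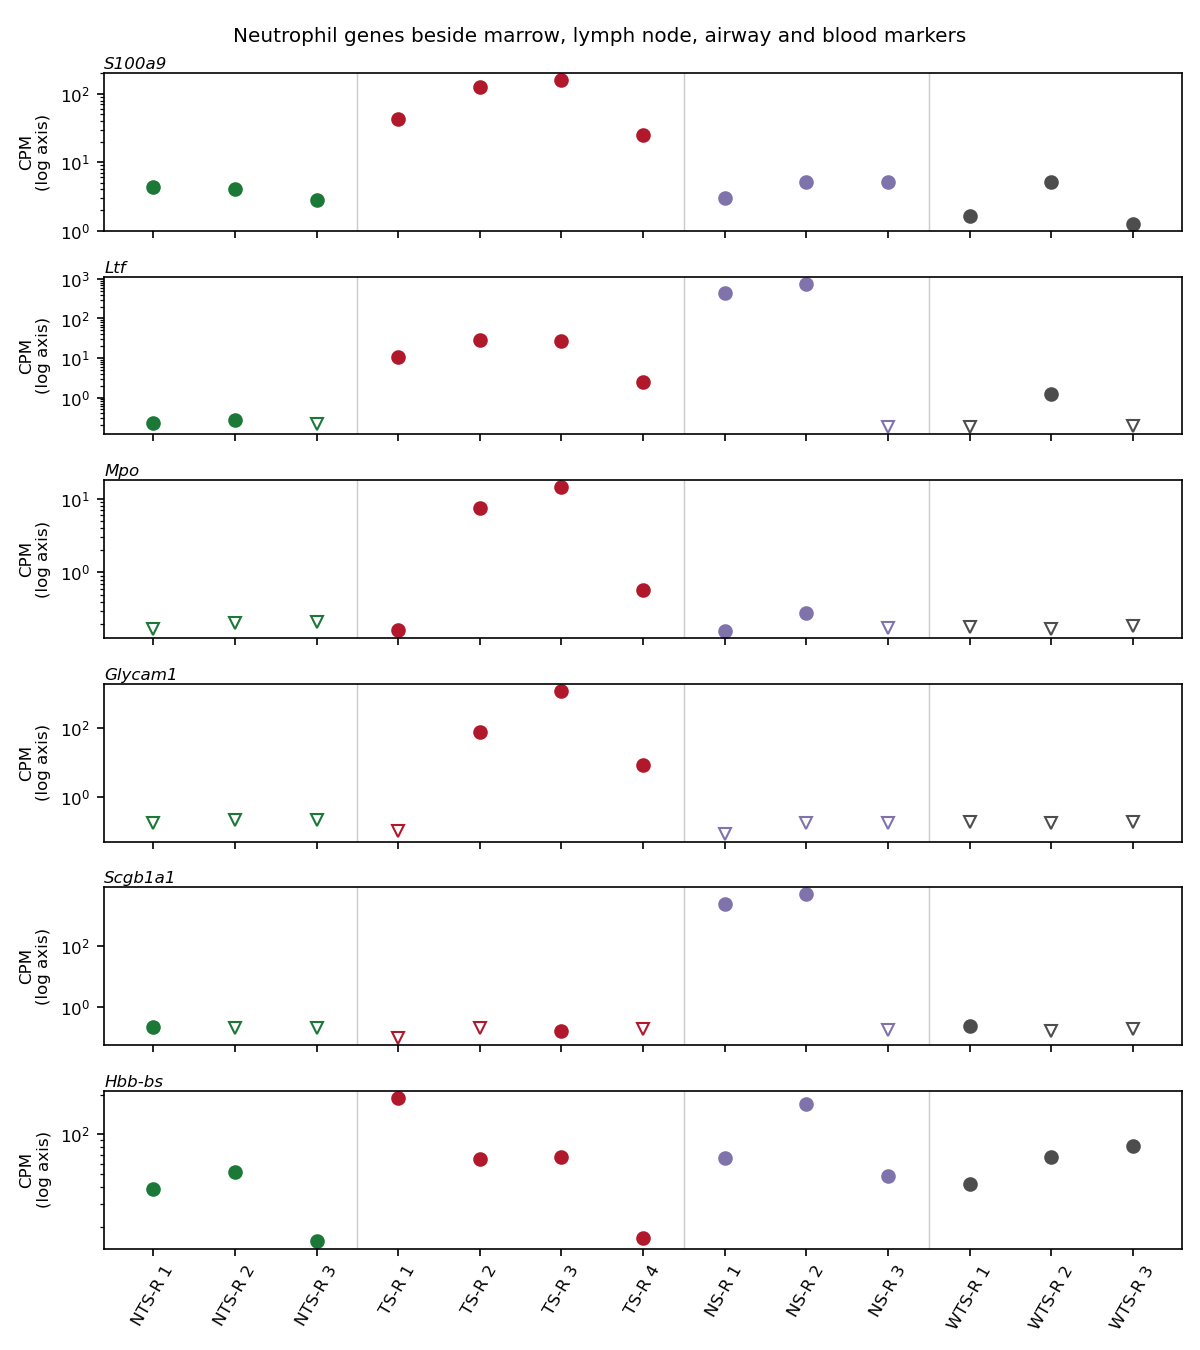
CPM on log axes in each of the 13 libraries of S100a9, Ltf, the early granule gene Mpo, the lymph node venule gene Glycam1, the airway gene Scgb1a1 and the red cell gene Hbb-bs; open triangles mark counts of 3 or fewer at the library's floor. S100a9 is highest in the 4 TS-R libraries, Mpo and Glycam1 are highest in TS-R replicates 2 and 3, and Ltf is highest in the NS-R libraries that hold Scgb1a1.

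Per kilobase of exon, S100a9 was the most abundant of the 10 genes in 10 of 13 libraries and Ltf in 2, NS-R replicates 1 and 2. In TS-R the mean level was 169 CPM per kilobase for S100a9, 48.4 for S100a8, 19.2 for Ngp, 16.4 for Retnlg, 10.9 for Camp, 5.71 for Lcn2, 4.96 for Ltf, 4.30 for Csf3r, 3.26 for Cxcr2 and 1.60 for Asprv1. S100a9 was above S100a8 and S100a8 above Ngp in all 4 TS-R libraries. Ngp and Retnlg, Ltf and Csf3r, and Cxcr2 and Asprv1 were each in that order in 2 of the 4 TS-R libraries only, so these neighbours are not separated.

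Across the 13 libraries the members' log2(CPM + 0.5) ran together to different degrees. Pearson's r was 0.99 for S100a8 with S100a9 and for S100a9 with Retnlg. With S100a8 it was 0.74 for Csf3r and 0.73 for Lcn2, and Ltf had an r of 0.18 with Lcn2 and 0.35 with S100a9. These values describe libraries that share the high TS-R group and its uneven tissue content. The genes outside the list with the pattern most like the members' mean were Wasf1 (r = 0.97), Tmem150c, St8sia1, Sec22c, Fam189b, Arl4c, the neutrophil collagenase gene Mmp8 (r = 0.95 each) and Pacsin1 (r = 0.94).

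The wider set of neutrophil genes was less uniform than the 10, which were, like the lists, chosen with earlier results of these data known. Of 18 other granule and effector genes 14 were tested, and at an unadjusted p under 0.05 the TS-R versus WTS-R comparison had 6 higher and 1 lower, with a median of 1.13, beside 15.2% of all genes higher and 7.07% lower. In NTS-R versus TS-R 11 of the 14 were lower, with a median of -1.58, beside 14.1% of all genes, and none passed an edgeR FDR of 0.05 in either comparison. Mmp8 gave 4.55 (SE 0.93, edgeR FDR 0.0624) in TS-R versus WTS-R and -3.81 in NTS-R versus TS-R, and Cd177, a surface protein of granule membranes, gave 4.23 (SE 1.16, edgeR FDR 0.0715) and -6.61. Pglyrp1, which binds bacterial peptidoglycan, gave 2.94 and -3.28, the oxidase subunit gene Cybb 1.99 and -2.05, and the oxidase organiser gene Ncf1 1.82 and -2.20. Pglyrp1 was also at 17.3 and 27.4 CPM in the airway-containing NS-R replicates 1 and 2, against 1.18 CPM in NS-R replicate 3. Cd177 had 1.35, 4.16 and 0.236 CPM in these 3 libraries, and 1.98, 5.82, 5.12 and 0.450 CPM in TS-R.

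Of 19 other surface receptors 11 were tested, with 4 higher and 1 lower in TS-R versus WTS-R at an unadjusted p under 0.05 (median 0.36) and 5 lower in NTS-R versus TS-R (median -1.75), beside 15.2%, 7.07% and 14.1% of all genes. Clec4e, a receptor for mycobacterial glycolipid, gave 2.99 (SE 1.09, edgeR FDR 0.134) and -3.0 in these comparisons. Most of it was in TS-R replicate 3: Clec4e had 0.638, 1.96, 22.1 and 1.03 CPM in TS-R, versus 0.901, 0.508 and 0.504 CPM in WTS-R. Mcemp1 gave 2.23 and -2.44, and the beta-2 integrin gene Itgb2 gave 1.69 and -1.75. Itgb2 had 13.2, 72.8, 195 and 44.5 CPM in TS-R, with TS-R replicate 1 within the WTS-R range of 11.2 to 26.7 CPM. The formyl peptide receptor gene Fpr1 instead gave -0.82 (SE 1.02, edgeR FDR 0.670) and -2.28. The negative Fpr1 value in TS-R versus WTS-R comes with 1 library: Fpr1 had 0.436, 0.812, 2.46 and 0.385 CPM in TS-R libraries, versus 0.120, 0.169 and 4.35 CPM in WTS-R, so that every TS-R library was above WTS-R replicates 1 and 2. Of 8 transcription factors of granulocyte formation 7 were tested, with 2 higher and 1 lower in TS-R versus WTS-R at an unadjusted p under 0.05 (median 0.72), beside 15.2% and 7.07% of all genes. Gfi1, a repressor needed for neutrophil maturation, gave 3.34 (SE 0.86, edgeR FDR 0.0649), Runx1 1.61, the PU.1 gene Spi1 1.02 and Klf5 0.72. In TS-R, Gfi1 had 0.336, 3.52, 7.33 and 1.99 CPM and Spi1 7.05, 20.8, 48.5 and 16.8 CPM. For Gfi1, Runx1 and Spi1 the highest TS-R libraries were replicates 2 and 3. For Runx1 and Spi1, TS-R replicate 1 was within the WTS-R range. The part of lymphoid tissue in the levels of these factors was not tested. Cebpb, which is also a factor of fat cell differentiation, gave -1.40 (SE 0.41, edgeR FDR 0.0792).

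The signals that bring neutrophils in were tested from 2 lists. Of 15 ligands 8 were tested, with 3 higher and 0 lower in TS-R versus WTS-R at an unadjusted p under 0.05 (median 1.06) and 2 lower in NTS-R versus TS-R (median -0.85), where 15.2% of all genes were higher in the first and 14.1% lower in the second comparison. Il1b, the cytokine that the Nlrp3 inflammasome matures, gave 2.59 (SE 0.50, edgeR FDR 0.0624) and -2.40 (SE 0.49, edgeR FDR 0.105), Tnf 1.81 and -2.92, Il6 1.72 and -1.96, the Cxcr2 ligand gene Cxcl1 1.35 and -0.51, and the platelet chemokine gene Ppbp 0.78 and -1.18. The Il6 values rest on few reads. TS-R replicates 1 to 4 held 5, 7, 20 and 0 Il6 counts, and no WTS-R or NTS-R library held more than 3. In NS-R versus WTS-R 4 of the 8 were higher at an unadjusted p under 0.05 (median 1.88), beside 4.92% of all genes. In NTS-R versus NS-R 4 were lower (median -1.62), beside 5.11% of all genes. Il1b had 1.92, 3.13 and 1.83 CPM in NS-R, against 0.481, 0.508 and 0.882 CPM in WTS-R. Ppbp was at 4.84 and 5.59 CPM in the airway-containing NS-R replicates 1 and 2, against 0.413 CPM in NS-R replicate 3. Il6 was likewise higher there, at 1.54 and 1.48 CPM against 0.236 CPM. NS-R replicate 2 was highest for Cxcl1 (2.46, 8.66 and 1.95 CPM over NS-R replicates 1 to 3) and Cxcl2 (0.648, 6.27 and 0.590 CPM). Il1b and Tnf (1.0, 1.48 and 1.06 CPM) were not confined to the airway-containing libraries. The part of airway tissue in these ligand levels was not tested. Of 8 adhesion genes, all tested, 5 were higher in TS-R versus WTS-R and 5 lower in NTS-R versus TS-R (medians 1.73 and -1.32), beside the same 15.2% and 14.1% of all genes. The LFA-1 subunit gene Itgal gave 3.32 and -3.45, the E-selectin gene Sele 2.43 and -1.49, Vcam1 2.29 and -1.56, the selectin ligand gene Selplg 2.17 and -2.15, and Icam1 1.29 and -1.15. Itgal had 3.66, 67.4, 228 and 28.6 CPM in TS-R, and Vcam1 9.06, 56.1, 139 and 40.1 CPM. For Itgal, Vcam1, Selplg and Icam1, TS-R replicates 2 and 3 were highest and TS-R replicate 1 was within the WTS-R range. Sele was above WTS-R in every TS-R library. The part of lymphoid tissue in these levels was not tested. None of the ligand or adhesion genes passed an edgeR FDR of 0.05.

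Receptors of the alarmins differed in both directions. Of 8 alarmin receptor genes 2 were higher and 1 lower in TS-R versus WTS-R at an unadjusted p under 0.05, with a median of 0.17, where 15.2% of all genes were higher and 7.07% lower and the median was 0.03. Cd33 gave 2.02, the RAGE gene Ager 1.21, Tlr2 0.65, Tlr4 0.43 and the basigin gene Bsg -0.65. Of 10 other S100 genes 7 were tested and 0 were past an unadjusted p of 0.05 in either comparison, with medians of -0.37 in TS-R versus WTS-R and -0.07 in NTS-R versus TS-R. S100a11 gave -0.57 (SE 0.30, edgeR FDR 0.278), S100a10 and S100a1 -0.43, S100a13 -0.37 and S100a16 -0.31 in TS-R versus WTS-R.

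**Figure D4:**
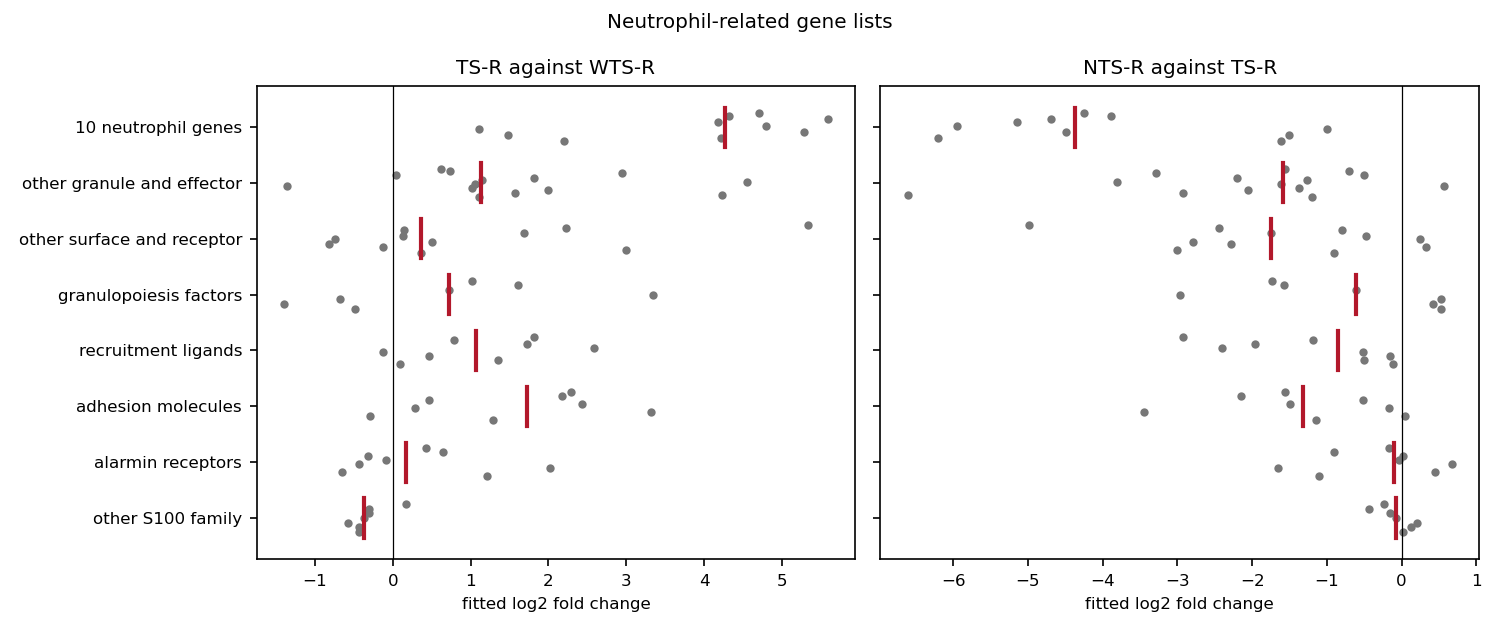
Fitted log2 fold change (points, each a tested gene) of the 10 neutrophil genes and 7 related lists, with the median as a red bar, in TS-R versus WTS-R and in NTS-R versus TS-R. The 10 genes have medians of 4.26 and -4.37, the adhesion genes 1.73 and -1.32, and the other S100 genes -0.37 and -0.07.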

How the data were processed

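Perivascular adipose tissue of recipient mice (13 libraries) was profiled by paired-end mRNA sequencing, per the labels' protocols. The deposited table holds raw counts per gene, made by the authors with HISAT2 and featureCounts per the submitters' processing notes; no version, genome build, annotation or strand setting was given in the sources used here, so reads of overlapping antisense genes cannot be told apart. Identifiers were matched to symbols (711 of 34013 had none). The 13 libraries, grouped by title, entered 1 edgeR 4.0.16 quasi-likelihood fit (R 4.3.3, TMM, filterByExpr, group only), which tested 17270 genes; calls used a Benjamini-Hochberg FDR of 0.05 over all of them. CPM used the total counts, exon lengths came from GENCODE M21, and fold changes are fitted log2 values. DESeq2 1.42.0, limma 3.58.1 with quality weights, RLE size factors, no filter, the replicate number as a block, male libraries only and leaving out libraries were alternatives. The script was tested on simulated data. Named are all 10 genes, up to 5 genes per other list by absolute fold change in TS-R versus WTS-R, defining markers, and the 8 genes closest in pattern; Ctsg was named after its values were seen. An item that the rule would name among the surface receptors is not reported here. The members and lists were chosen with earlier results of these data known. Within groups, no pair of libraries matched within sampling noise (lowest chi-square per degree of freedom 36.0).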

Additional observations from a re-analysis of the deposited data

How the results depend on the processing

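Of the 10 genes, all but Lcn2 kept their sign in TS-R versus WTS-R, in NTS-R versus TS-R and in the interaction under every alternative run; whether they passed the threshold depended on the fit, and the cause was not tested. With edgeR the counts of members and of all genes called were 0 in every comparison, and RLE size factors left them there. Counts below are higher, then lower, at an adjusted p under 0.05. Without the filter on low counts they were 824 and 65 genes in TS-R versus WTS-R, 16 and 388 in NTS-R versus TS-R, 137 and 1 in NS-R versus WTS-R, 1 and 125 in NTS-R versus NS-R and 1 and 91 in the interaction, with 7, 6, 1, 1 and 4 members in these comparisons in turn. DESeq2 gave 1631 and 307, 182 and 1286, 316 and 1, 4 and 330, 11 and 2 in NTS-R versus WTS-R, and 98 and 1085 in the interaction, with 9, 9, 1, 1, 0 and 6 members. Limma with quality weights gave 2332 and 1484 in TS-R versus WTS-R, 380 and 1258 in NTS-R versus TS-R, 14 and 0 in NS-R versus WTS-R, 0 and 12 in NTS-R versus NS-R, 0 and 2 in NTS-R versus WTS-R and 621 and 1251 in the interaction, with 9, 8, 0, 0, 0 and 4 members. Male libraries only, without TS-R replicate 3 and NS-R replicate 3 that an earlier analysis of these counts marked as female, gave 49 and 1 in TS-R versus WTS-R, 0 and 0 in NTS-R versus TS-R, 674 and 0 in NS-R versus WTS-R, 33 and 725 in NTS-R versus NS-R, 1 and 0 in NTS-R versus WTS-R and 5 and 396 in the interaction, with 3, 0, 1, 1, 0 and 4 members.

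The replicate block, which takes the number in the titles as a factor, gave 619 and 165 genes in TS-R versus WTS-R, 11 and 65 in NTS-R versus TS-R and 2 and 17 in the interaction, with 5, 4 and 1 members; Camp in NS-R versus WTS-R turned to 0.23 and Csf3r in NTS-R versus WTS-R to 0.00. The numbers do not pair the libraries: residuals of same-numbered libraries had a mean r of 0.03 (range -0.30 to 0.31 over 18 pairs) and other pairs -0.01 (range -0.42 to 0.40 over 45 pairs), and for 4 of 13 libraries the closest library shared the number.

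Signs also turned where differences were small. Limma with quality weights gave 0.84 for Ngp, 1.76 for Camp and 0.31 for Lcn2 in NS-R versus WTS-R, 0.10 for S100a9 and 0.52 for Ngp in NTS-R versus NS-R, and 0.52 for Ltf, 1.36 for Ngp and 0.64 for Camp in NTS-R versus WTS-R. With male libraries only, S100a9 was 0.01 and Cxcr2 0.07 in NTS-R versus NS-R. 2 alternatives were added after seeing the data. Without TS-R replicates 2 and 3, Lcn2 was -0.03 in TS-R versus WTS-R, 0.17 in NTS-R versus TS-R and 0.47 in the interaction, and 3 genes were lower in NTS-R versus NS-R. Without NS-R replicates 1 and 2, Ltf was -1.87 and Lcn2 0.07 in NS-R versus WTS-R, and S100a8 was -0.22, Ltf 0.73, Ngp 0.45 and Camp 0.36 in NTS-R versus NS-R.

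Leaving out each library in turn gave 0 to 1543 genes higher, 0 to 363 lower and 0 to 8 members higher in TS-R versus WTS-R, and 0 to 160 genes higher, 0 to 981 lower and 0 to 8 members lower in NTS-R versus TS-R. It gave 0 to 503 genes and 0 to 1 members higher in NS-R versus WTS-R, 0 to 7 genes higher, 0 to 556 lower and 0 to 1 members lower in NTS-R versus NS-R, and 0 to 8 higher, 0 to 510 lower and 0 to 4 members lower in the interaction. In NS-R versus WTS-R the fitted values ranged from -0.16 to 1.51 for S100a8, -1.85 to 2.97 for Ngp, -1.03 to 5.55 for Camp, -0.68 to 0.41 for Lcn2 and -0.11 to 0.30 for Csf3r. In NTS-R versus NS-R they ranged from -0.26 to 0.45 for S100a8, -0.49 to 0.01 for S100a9, -1.0 to 0.89 for Ngp, -1.76 to 0.05 for Cxcr2 and -0.56 to 0.04 for Csf3r. In NTS-R versus WTS-R they ranged from -0.01 to 1.67 for S100a8, -1.68 to 1.22 for Ltf, -1.52 to 2.49 for Ngp, -3.10 to 4.0 for Camp, -0.26 to 0.83 for Lcn2, -0.44 to 1.48 for Cxcr2 and -0.42 to 0.18 for Csf3r. Depth limits Camp, Cxcr2, Ltf and Retnlg, which were at or under 3 counts in libraries of both NTS-R and WTS-R. It also limits Ngp, which was under 3 counts in WTS-R replicates 1 and 3.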
